A study of Mus musculus with 18 samples.

Results

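At postnatal day 8 (p8), RNA of fluorescently sorted spinal cells from the thoracic cord was compared with that of cells from the brachial and lumbar cord of the same mouse cross. Each of the 3 regions has 3 samples, so 3 thoracic samples stood against 6 others, and a positive log2 fold change means a higher level in thoracic cells. The deposited table of this comparison lists 27179 genes, and the 14311 genes whose base mean reached 10 are described here. The base mean averages a gene's read count over all 9 samples after each count was divided by the library's size factor, which corrects for depth. The table holds no value for a single sample. Every gene is therefore given by a regional level, a normalized count solved from the base mean and the 3 regional fold changes, and by the standard error of its fold change. The fold changes of genes with few reads were drawn toward 0 by the model (a gene with a single thoracic read has a log2 fold change of 0.20 to 0.25) to a different extent in each table. The solved levels differ from those of each region's own table by 1 shift common to the 3 regions of a gene. The order of the regions is therefore the same in both by construction. In 558 of the 14311 genes (3.90%) at least 1 own-table level differed by more than 1.5 times from the solved one. For named genes both values are given where this is so.

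All 9 samples came from Chat-IRESCre mice crossed to the Ai9 reporter, in which Cre made from the choline acetyltransferase locus switches on tdTomato for good. TdTomato therefore marks every cell with a history of Chat expression, which covers skeletal and visceral motor neurons (MNs) and some interneurons, and the study saw a few labelled cells outside the MN columns. Dissociated cells were sorted for tdTomato with DAPI to leave out dead cells, and the cords of 3 animals were pooled for each sample. No treatment or mutation distinguished the groups, which differ by cord region in the labels. The segments taken as thoracic are not given in the sources used here.

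Thoracic MNs supply the muscles of the back and the body wall, and preganglionic neurons of the thoracic cord drive the sympathetic ganglia. Limb-innervating lateral columns form at brachial and lumbar levels and not between them. Hox genes, which encode homeodomain transcription factors arranged in clusters, are expressed in overlapping domains along the cord and give MNs their regional identity, with paralog groups 4 to 8 typical of brachial, group 9 of thoracic and groups 10 to 13 of lumbar levels.

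Depth differed more within regions than between them. Genes with a single read in the whole data set share a base mean, and this value gave a size factor for each of the 9 libraries. The 3 thoracic size factors were 2.73, 2.02 and 0.228, the brachial ones 2.39, 1.72 and 0.160 and the lumbar ones 2.74, 1.70 and 0.509. Each region thus held 1 shallow library, 12-fold below the deepest in the thoracic group, 14.9-fold in the brachial and 5.39-fold in the lumbar group. The 6 deeper libraries were checked on the 687 genes with more than 1 read whose normalized counts summed to less than 2, and all 687 were whole numbers of reads to within 1e-06. The 3 shallow ones could not be checked in this way and rest on the 11 to 22 genes that gave their factors. Which replicate is the shallow one cannot be read from the table.

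**Figure D1:**
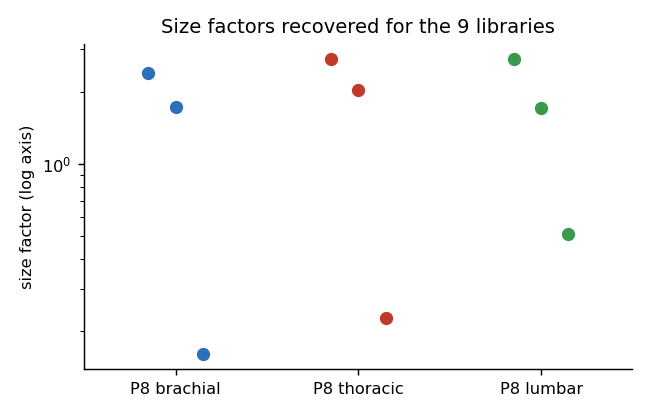
Size factors (log axis) of the 9 p8 libraries by region, recovered from the base means of genes with 1 read. In each region 2 libraries lie between 1.70 and 2.74 and 1 lies at 0.160 (brachial), 0.228 (thoracic) or 0.509 (lumbar).

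The sorted populations carried many transcripts of other cells. Oligodendrocyte genes (20 listed, all measured), led by the myelin gene Mbp, made up 43.0% of the summed level in thoracic, 43.3% in brachial and 46.3% in lumbar samples. The 6 cholinergic genes made up 0.00406% in thoracic, 0.00148% in brachial and 0.00190% in lumbar samples. Defining MN transcription factors were close to the detection limit. Isl1 had a base mean of 2.67 and Mnx1 one of 0.696, Isl2 had a base mean of 0.0406, which is 1 read in the deepest thoracic library, and Lhx3 and Lhx4 had no read in any sample, which allows up to 3 reads over the 9 libraries. In such bulk samples fewer cells of a type and less RNA per cell cannot be told apart.

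Only 2 of the 13257 genes that have a p-value passed an adjusted p of 0.05 in the thoracic comparison (0.0151% of those tested), and both were higher in thoracic cells. No gene was lower at this threshold. The test was the 2-sided Wald test of the DESeq2 model, adjusted by Benjamini-Hochberg over the 18152 genes with a p-value in the table. At an unadjusted p under 0.05, 217 genes stood out (1.64%), of which 53 were higher (0.4%) and 164 were lower (1.24%). When brachial cells were set apart, 47 of 13424 genes passed the adjusted threshold (0.35%), 32 of them higher (0.238%) and 15 lower (0.112%). When lumbar cells were set apart, 4 of 13346 passed (0.03%), 1 of them higher (0.00749%) and 3 lower (0.0225%). With the thoracic Wald statistic divided by its robust SD of 0.650, 28 of the 13257 genes tested in the thoracic comparison would be called higher and 74 lower. A divisor below 1 lowers the p of every gene, and whether the deposited standard errors are too wide was not tested. The 3 comparisons share all 9 samples and differ in which region is set apart.

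D6Ertd474e, a long noncoding RNA gene, had the smallest p of the thoracic comparison. It lies on chromosome 6 from 143245888 to 143297879 of GRCm38 and overlaps 1 other annotated gene, 4930407I02Rik. Its level was 71.0 in thoracic, 1.35 in brachial and 4.53 in lumbar samples. Each region's own table gave 75.2, 5.61 and 8.78, so the thoracic level was far above both others in either solution, while the brachial and lumbar values depend on the solution. The log2 fold change was 5.33 (standard error 0.905, 95% interval 3.55 to 7.10), with an adjusted p = 7.13e-05. The brachial table gave a log2 fold change of -2.71 for the same gene, the lumbar table one of -1.998, and neither passed its adjusted threshold (adjusted p = 0.735 and 0.9998).

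Hapln4 encodes a link protein that binds hyaluronan and proteoglycans in the perineuronal nets around synapses. It lies on chromosome 8 from 70083529 to 70090862 and overlaps no other annotated gene. Its level was 56.1 in thoracic, 2.47 in brachial and 4.57 in lumbar samples, the same order as for D6Ertd474e, and 59.3, 5.66 and 7.76 from the regions' own tables. The log2 fold change was 4.44 (standard error 0.962, interval 2.56 to 6.33), with an adjusted p = 0.0349. In the brachial and lumbar tables it was at -2.38 and -1.88. Both genes had low base means, 26.3 for D6Ertd474e and 21.6 for Hapln4, and 1 read of the shallow thoracic library counts as 4.39 normalized counts. How far 1 library carried either difference was not tested, since no value per sample is given.

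**Figure D2:**
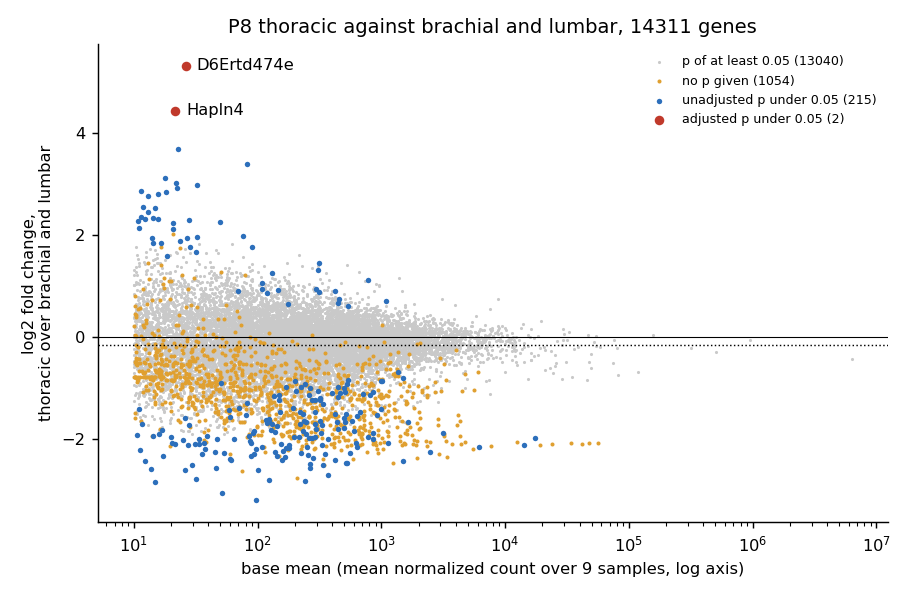
Log2 fold change of thoracic over brachial and lumbar cells against the base mean (log axis) for 14311 genes, with the zero line (solid) and the median of -0.14 (dotted). D6Ertd474e and Hapln4 stand above the cloud on the left, while most of the genes with an unadjusted p under 0.05 (blue) and of those without a p (orange) lie below 0.

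The genes next in order were read from their p-values after these had been seen, and none of them passed the adjusted threshold. Among the 53 genes with higher values in thoracic cells at an unadjusted p under 0.05, all had their highest solved level in thoracic samples, 34 their lowest in brachial and 19 their lowest in lumbar samples. Their median base mean was 27.0, and 29 of them (54.7%) had a base mean under 30, against 12.8% of all members. Of the 164 genes with lower values, 107 had their highest level in brachial and 57 in lumbar samples, and their median base mean was 220. Protein-coding genes made up 88.7% of the higher, 95.1% of the lower and 94.3% of all genes.

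Several of the 53 genes are known from neurons. Nwd2, which encodes a protein with NACHT and WD repeats, had levels of 57.9 in thoracic, 3.09 in brachial and 6.46 in lumbar samples (log2 fold change 3.68, interval 1.84 to 5.53, adjusted p = 0.502). Pkd2l1 encodes a channel of the neurons that contact the cerebrospinal fluid around the central canal. Its levels were 209 in thoracic, 25.4 in brachial and 13.8 in lumbar samples, a log2 fold change of 3.40 (interval 1.54 to 5.26, unadjusted p = 0.000340). Pkd1l2, from the same polycystin family, had 73.8, 7.84 and 13.2 in the same order, a log2 fold change of 2.99 (1.08 to 4.89). In both polycystin genes the thoracic level was several times that of either limb level, with intervals that span more than 3 log2 units.

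Kcna4, a voltage-gated potassium channel gene, was at 27.0 in thoracic, 2.99 in brachial and 4.45 in lumbar samples (log2 fold change 2.88, interval 0.99 to 4.76). Slc12a5 encodes the chloride extruder KCC2 that makes inhibition effective in mature neurons, and its levels were 30.3, 5.18 and 3.68 (2.77, 0.88 to 4.66). Fgf13, whose product binds sodium channels, had 106, 27.7 and 15.3 (2.27, 0.74 to 3.79). Cnr1, the cannabinoid receptor gene, had 29.5 in thoracic, 2.27 in brachial and 7.86 in lumbar samples (2.46, 0.59 to 4.33). Vipr1, a receptor gene for the peptide VIP, also belonged to the 10 smallest p-values on this side, at 3.12 on the log2 scale. So did Spock1, a testican proteoglycan gene, at 2.86, and Iglv1, an immunoglobulin light chain segment, at 2.93.

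On the lower side the 10 smallest p-values mixed chromatin, interferon and vascular genes. Brd1, which encodes a subunit of a histone acetyltransferase complex, had levels of 77.0 in thoracic, 417 in brachial and 253 in lumbar samples (log2 fold change -2.15, interval -3.24 to -1.06, adjusted p = 0.502). Rsad2, the interferon-induced antiviral gene also called viperin, had 21.7, 149 and 123 (-3.20, -5.01 to -1.39), the most negative value of all members. Nmi, another interferon-induced gene, had 27.2, 145 and 110 (-2.30, -3.63 to -0.96). Both interferon genes had similar brachial and lumbar levels. Abcc9, a subunit of potassium channels in pericytes, differed between the other regions as well, with 11.1 in thoracic, 44.9 in brachial and 100 in lumbar samples (-3.06, -4.82 to -1.30). Magi3, a scaffold gene, was at -2.08, Rpia of the pentose phosphate pathway at -2.58 and Amdhd2 of hexosamine metabolism at -0.97, with the narrowest interval of these genes (-1.58 to -0.36).

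**Figure D3:**
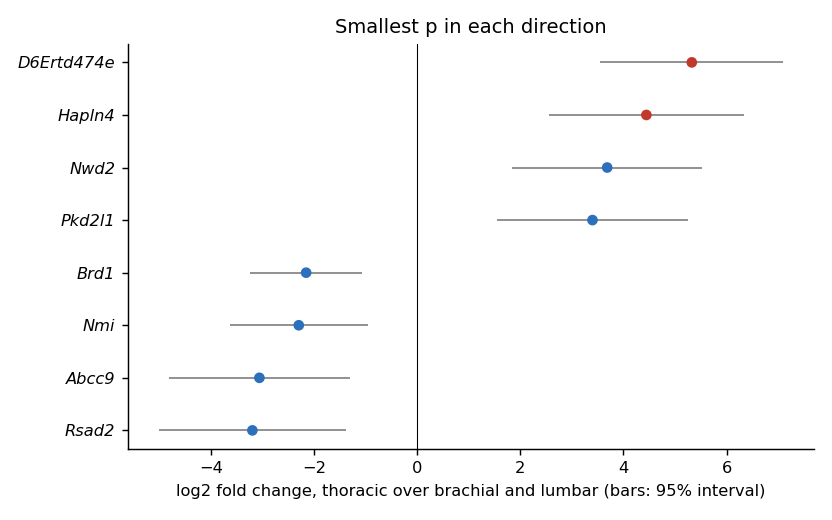
Log2 fold change of thoracic over brachial and lumbar cells with 95% intervals for the 4 genes of smallest p in each direction. D6Ertd474e and Hapln4 (red) passed an adjusted p of 0.05, and the other 6 (blue) did not. The interval of none of the 8 genes reaches 0.

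All members together lay slightly below 0. The median log2 fold change was -0.14 (quartiles -0.49 and 0.15), and 37.4% of the genes were above 0. Thoracic samples had the highest solved level of the 3 regions in 3147 genes (22.0%), brachial samples in 6030 (42.1%) and lumbar samples in 5134 (35.9%). The SD of the log2 fold changes was 0.61 in the thoracic, 1.25 in the brachial and 0.91 in the lumbar table. After subtraction of the members' median from every fold change, the genes with an unadjusted p under 0.05 were split into 95 higher and 102 lower, in place of 53 and 164. Subtraction of the members' own median draws such a split toward balance, and the source of the shift was not tested. The median standard error was 0.78. At that error, the smaller Wald statistic of the 2 called genes (4.62, Hapln4) corresponds to a log2 fold change of about 3.61. The gene just inside the limit on the base mean was Tlcd3b at 10.0002, and 6330549D23Rik stood just outside it at 9.997.

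Of the 14311 genes, 1054 (7.36%) have a fold change and no p-value in the thoracic table. DESeq2 withholds the p-value of a gene in which 1 sample has an outlying count. Their highest level was in brachial samples in 836 genes (79.3%), in lumbar samples in 185 (17.6%) and in thoracic samples in 33 (3.13%). Fewer members had no p in the brachial (887) and the lumbar table (965).

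The cholinergic genes were the group with the most positive thoracic values. All 6 members were above 0, with a median of 1.12 against -0.14 over all members, and 3 had an unadjusted p under 0.05, where 0.4% of all genes did on this side. None passed after adjustment over all genes. Slc18a3 encodes the vesicular acetylcholine transporter and lies inside the Chat gene on chromosome 14 (32462437 to 32464850, within 32408203 to 32465909). Its level was 46.8 in thoracic, 16.6 in brachial and 7.69 in lumbar samples (log2 fold change 1.89, interval 0.07 to 3.71, unadjusted p = 0.0419). Chat itself, the gene of choline acetyltransferase that drives the sorting label, had 19.3 in thoracic and 18.1 in brachial samples and 5.48 in lumbar samples (0.57, -1.35 to 2.48). The thoracic and brachial levels of Chat were nearly equal, unlike those of Slc18a3.

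Ache, which encodes the esterase that breaks down acetylcholine, had 175 in thoracic, 53.1 in brachial and 46.1 in lumbar samples (1.77, 0.05 to 3.50, unadjusted p = 0.0439). Slc10a4, a vesicular transporter gene of cholinergic and monoaminergic neurons, had 33.9, 9.15 and 12.9 (1.59, 0.16 to 3.02, unadjusted p = 0.0295). Slc5a7, the choline transporter gene, had 219, 155 and 121 (0.65, -1.01 to 2.31). Prima1, which anchors acetylcholinesterase to membranes, stood apart with a lumbar level of 158 above the thoracic 138 and the brachial 39.8 (0.43, -1.09 to 1.958).

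Among 12 measured genes of visceral and preganglionic neurons the median was 0.28, and 7 were above 0. Nos1, the neuronal nitric oxide synthase of sympathetic preganglionic neurons and of other spinal cells, had levels of 36.8 in thoracic, 7.68 in brachial and 2.75 in lumbar samples (log2 fold change 2.80, interval 0.95 to 4.66, unadjusted p = 0.00310, adjusted p = 0.9999). Smad1, a transducer of BMP signals, had 609, 278 and 371 (0.90, 0.11 to 1.70, unadjusted p = 0.0254). Zeb2, a transcription factor gene and the most abundant of the list, had 3329, 3349 and 3757, a difference of less than its standard error. The 6 cholinergic genes together summed to 633 in thoracic samples, and which cells gave the Zeb2 and Smad1 levels was not tested. Penk, which encodes the precursor of enkephalins, was on the other side with 21.1 in thoracic, 66.1 in brachial and 52.8 in lumbar samples (-1.50, -3.01 to 0.02, unadjusted p = 0.0524).

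The promoters of these genes are shown because Chat carries the Cre that defines the sorted cells, Slc18a3 shares its locus and Nos1 had the smallest p among the preganglionic genes. Each window runs 5′ to 3′ from 250 bases before to 50 after the annotated start (RefSeq, GRCm38.p6), and capitals mark TAAT, the core of many homeodomain sites, on either strand (ATTA on the other), overlapping matches included. The windows are chr14:32465860-32466159 on the minus strand for Chat, chr14:32464801-32465100 on the minus strand for Slc18a3 and chr5:117866589-117866888 on the plus strand for Nos1.
Chat: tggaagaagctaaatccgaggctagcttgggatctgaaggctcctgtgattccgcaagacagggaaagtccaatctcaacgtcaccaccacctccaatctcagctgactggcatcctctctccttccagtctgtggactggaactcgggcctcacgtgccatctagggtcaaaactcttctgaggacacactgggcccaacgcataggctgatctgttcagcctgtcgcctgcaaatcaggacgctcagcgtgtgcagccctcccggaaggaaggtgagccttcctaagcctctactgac
Slc18a3: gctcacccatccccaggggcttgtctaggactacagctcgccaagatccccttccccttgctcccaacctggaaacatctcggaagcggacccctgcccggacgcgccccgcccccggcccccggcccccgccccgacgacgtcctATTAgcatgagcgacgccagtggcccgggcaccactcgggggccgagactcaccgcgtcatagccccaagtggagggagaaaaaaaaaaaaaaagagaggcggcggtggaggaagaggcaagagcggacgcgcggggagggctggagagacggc
Nos1: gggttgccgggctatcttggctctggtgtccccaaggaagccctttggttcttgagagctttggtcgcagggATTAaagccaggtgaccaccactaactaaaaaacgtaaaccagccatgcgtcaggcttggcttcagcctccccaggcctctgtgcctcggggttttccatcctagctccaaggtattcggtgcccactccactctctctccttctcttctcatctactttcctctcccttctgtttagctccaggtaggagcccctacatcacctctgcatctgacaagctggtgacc
The Slc18a3 and the Nos1 window hold 1 match each and the Chat window holds 0. Of all 32851 windows of this length, 58.0% hold at least 1, so a match in a given window is common.

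Of 9 measured genes of the axial and hypaxial columns, which supply the trunk muscles, 5 were above 0 and the median was 0.19. Mecom, a zinc finger gene of medial column MNs, had the only unadjusted p under 0.05, on the higher side where 0.4% of all genes lay. Its level was 30.7 in thoracic, 5.33 in brachial and 6.62 in lumbar samples (2.34, 0.43 to 4.26, unadjusted p = 0.0164). Etv1, a transcription factor gene of axial MNs and proprioceptive circuits, had 391, 401 and 405, levels that cannot be told apart. Ebf2 had 28.5, 7.14 (4.51 from the brachial table alone) and 17.5 (0.99, interval from below to above 0). Of 19 measured genes of the limb lateral columns 13 were below 0, with a median of -0.16 close to that of all members and 0 with an unadjusted p under 0.05. Foxp1, the transcription factor that limb columns need, had 317 in thoracic, 634 in brachial and 526 in lumbar samples (-0.85, -2.48 to 0.78). The difference was close to 1 standard error. General MN genes showed a median of -0.04 over 8 members, with Prph at -1.69 and Slit3 at 0.59 as the extremes.

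Hox transcripts remained measurable at p8. Of 39 listed Hox genes, 24 reached a base mean of 10 and 2 had no read. No Hox gene passed the test in the thoracic comparison, with 0 of 24 under an unadjusted p of 0.05 and 0.142 as the smallest value. The median thoracic log2 fold change of the 24 was -0.38, beside -1.33 with brachial and 0.95 with lumbar cells set apart. The brachial level was the lowest in 19 of 24 genes and the lumbar level the highest in 19. Thoracic levels fell between the other two in 19, were the highest in 3 and the lowest in 2.

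Thoracic levels of the 4 group 9 genes lay between the brachial and the lumbar ones. Hoxc9, the paralog that sets the thoracic domain in the embryo, had 24.1 in thoracic, 10.98 in brachial and 25.3 in lumbar samples (thoracic log2 fold change 0.34, interval -1.56 to 2.23). Hoxa9 had 66.6, 10.2 and 188 (thoracic -0.64, -2.50 to 1.23), and its brachial value of -4.05 (adjusted p = 0.0251) was the single Hox call in the 3 tables. Hoxd9 had 13.7 in thoracic, 0.219 in brachial and 92.2 in lumbar samples, with a thoracic value of -1.44 (-3.35 to 0.48) beside -3.97 in the brachial and 3.95 in the lumbar table. The brachial level of Hoxd9 was 3.33 from the brachial table alone, so its size depends on the solution. Hoxb9 had 14.5, 5.16 and 31.5. Of the 4 group 9 genes, Hoxc9 alone had a thoracic log2 fold change above 0.

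Group 10 genes had their highest levels in lumbar samples. Hoxa10 was at 24.6 in thoracic, 4.31 in brachial and 107 in lumbar samples (thoracic -1.12, -3.02 to 0.78), and Hoxc10 at 8.17, 1.51 and 39.0 (-0.98, -2.82 to 0.86). Hoxd10 was at 7.42, 2.35 and 35.4. The brachial levels of Hoxc10 and Hoxd10 were 3.39 and 4.40 from the brachial table alone. Hoxa11 stood below the limit on the base mean, at 6.97.

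The 12 measured genes of groups 4 to 8 had a thoracic median of -0.26, with 8 below 0. Hoxc8, which marks the brachial domain, had 57.7 in thoracic, 126 in brachial and 53.7 in lumbar samples (-0.60, -2.19 to 0.98), with similar thoracic and lumbar levels and a brachial level above both. Hoxc5 had a base mean of 9.41 with the same order (7.64, 14.9 and 5.55). Hoxc6, in contrast, was at 25.7 in thoracic, 9.06 in brachial and 34.2 in lumbar samples (0.20, -1.48 to 1.87). Hoxc4 had 16.2, 11.8 and 42.8, Hoxa5 had 44.4, 37.4 and 94.1, and Hoxa6 had 12.8, 4.79 and 17.8. Hoxa7 had 133, 90.9 and 206 (-0.17, -1.79 to 1.45). Hoxd8, with the highest level of all Hox genes, had 403 in thoracic, 317 in brachial and 365 in lumbar samples (0.24, -0.92 to 1.40). In Hoxa4, with 42.8, 29.9 and 27.7, the brachial and lumbar levels were nearly equal. Hox cofactor genes of the Pbx, Meis and Pknox families (9 members) had a median of 0.03.

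The 5 measured genes of groups 1 to 3, which are expressed up to the hindbrain in the embryo, had a thoracic median of -0.15, with 2 above 0. Hoxd3 had 140.04 in thoracic, 124 in brachial and 185 in lumbar samples, and Hoxd1 had 29.6, 49.8 and 22.1, the order seen in Hoxc8. Hoxa3, with the highest thoracic fold change of the 5, had 34.1 in thoracic, 4.91 in brachial and 24.9 in lumbar samples (1.04, -0.81 to 2.88). Its brachial level was 2.62 from the brachial table alone.

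**Figure D4:**
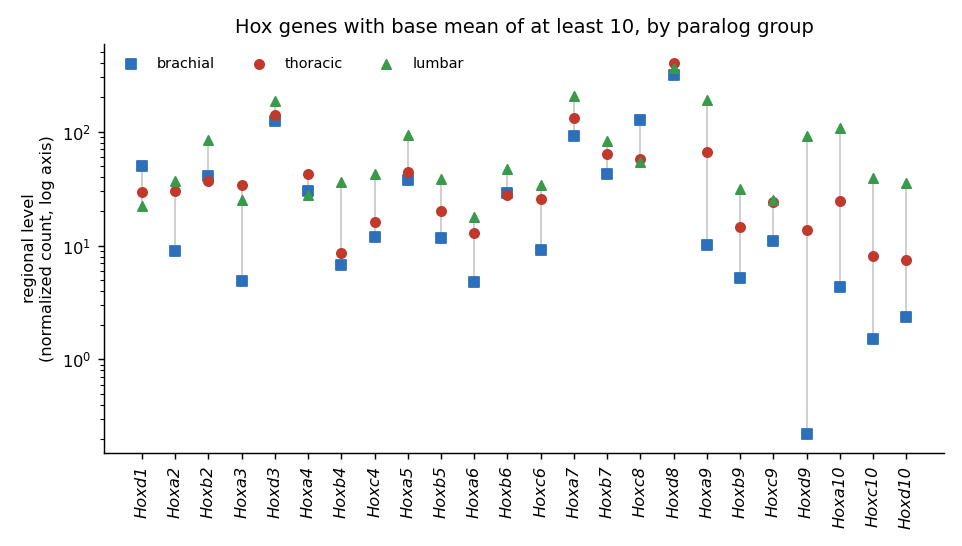
Solved regional levels (normalized counts, log axis) of the 24 Hox genes among the members, ordered by paralog group. The lumbar level (triangles) is the highest and the brachial level (squares) the lowest in 19 genes each, and in 3 genes, Hoxc8, Hoxd1 and Hoxa4, the brachial level lies above the lumbar one.

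Genes of connective tissue had the most negative thoracic values among lists with enough p-values. The 13 measured fibroblast and meningeal genes had a median of -1.963, 12 were below 0, and 6 had an unadjusted p under 0.05, all on the lower side, where 1.24% of all genes lay. None passed the adjusted threshold. Col3a1, a fibrillar collagen gene, had 1946 in thoracic, 4837 in brachial and 11854 in lumbar samples (-2.15, unadjusted p = 0.0150). Dcn, which encodes decorin, had 177, 657 and 866 (-2.26), and Lum, which encodes lumican, had 49.5, 359 and 124 (-2.18). Lum was highest in brachial samples and Col3a1 in lumbar ones. The summed level of the list was 5352 in thoracic, 10832 in brachial and 26513 in lumbar samples. Collagen and basement membrane genes (26, some of them shared with that list) had a median of -1.01, and 5 had an unadjusted p under 0.05.

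Haemoglobin genes had negative values as well. Hba-a2 had 127 in thoracic, 274 in brachial and 1173 in lumbar samples (-2.46, -4.23 to -0.69, unadjusted p = 0.00644) and Hbb-bs had 102, 197 and 965 (-2.41, -4.18 to -0.64). Both belong to clusters of near-identical copies, between which unique reads can be lost. Alas2, the erythroid enzyme of haem synthesis, was at -1.95. Of the 6 erythroid members these 3 had an unadjusted p under 0.05 on the lower side, where 1.24% of all genes lay, and the median was -1.30.

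Interferon-induced genes (18) had a median of -0.93 with 16 below 0, and antigen presentation genes (13) a median of -1.34 with all below 0. Beside Rsad2, Rtp4 had an unadjusted p under 0.05, with 23.2 in thoracic, 204 in brachial and 29.1 in lumbar samples (-2.02). Among the class II genes, H2-Aa had 61.7, 543 and 157 (-2.31, unadjusted p = 0.0118), H2-Eb1 had 59.3, 276 and 205 (-2.10) and Cd74, the invariant chain, had 639, 3091 and 1179 (-1.66). The brachial samples were highest in each of these 4 genes, and the brachial medians of the lists were 2.14 and 2.22. Rtp4 was nearly equal in thoracic and lumbar cells, so its thoracic fold change stems from the brachial side of the contrast.

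The neutrophil list had its highest summed level in brachial samples as well. All 13 members were below 0 in the thoracic comparison (median -2.07) and 12 had no p-value. The summed level of the list was 33092 in thoracic, 617600 in brachial and 1635 in lumbar samples, or 3.13% of the brachial total. For Ngp, a granule protein gene, the solved levels were 8281, 155272 and 474, while each region's own table gave 17902 for thoracic and 10095 for lumbar samples, so the levels of this list depend on how they are solved. Granule genes Ltf, Camp, S100a8 and S100a9 had the same order. Thoracic and lumbar sums lay closer together in the interferon list (1580 and 1358) and the antigen presentation list (4928 and 4511). In Rtp4, H2-Aa, H2-Eb1 and Cd74 the lumbar level was above the thoracic one. The part of neutrophil transcripts in the interferon and antigen presentation values was not tested.

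Schwann cell genes had mostly negative values. Of 13 Schwann cell members 12 were below 0 in the thoracic table and 10 had no p-value. Cldn19, a tight junction gene of myelinating Schwann cells, had 20.1 in thoracic, 1.55 in brachial and 239 in lumbar samples (brachial 9.54 from its own table, thoracic fold change -2.08, unadjusted p = 0.0317), and its lumbar value of 4.81 passed the adjusted threshold of the lumbar table (adjusted p = 0.000908). The lumbar samples also had the highest summed levels of the connective tissue list, and the part of Schwann cell transcripts in the thoracic values was not tested.

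Glial and endothelial genes of the cord lay closer to 0. The median of 20 oligodendrocyte genes was 0.02 with 11 above 0, that of 12 precursor genes 0.32 with 10 above 0, and that of 15 endothelial genes 0.12. Astrocyte genes (15) had a median of -0.50, with Gfap, the glial filament gene, at 0.36 as the one member above 0. Ependymal genes (14) were all below 0 with a median of -0.40. Foxj1, the regulator of motile cilia, was at 222 in thoracic, 80.7 in brachial and 370 in lumbar samples. None of these lists had a member with an unadjusted p under 0.05.

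Microglial genes were on the other side, with a median of 0.90 and 12 of 15 above 0, and none had an unadjusted p under 0.05. P2ry12, a purine receptor gene of resting microglia, had 2228 in thoracic, 959 in brachial and 985 in lumbar samples (1.16, interval from below to above 0), and C1qb, a complement gene, had 922, 374 and 297 (1.42, unadjusted p = 0.0883). Tyrobp, which neutrophils share, was the lowest at -1.17, with a brachial level of 4088 above the thoracic 865.

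**Figure D5:**
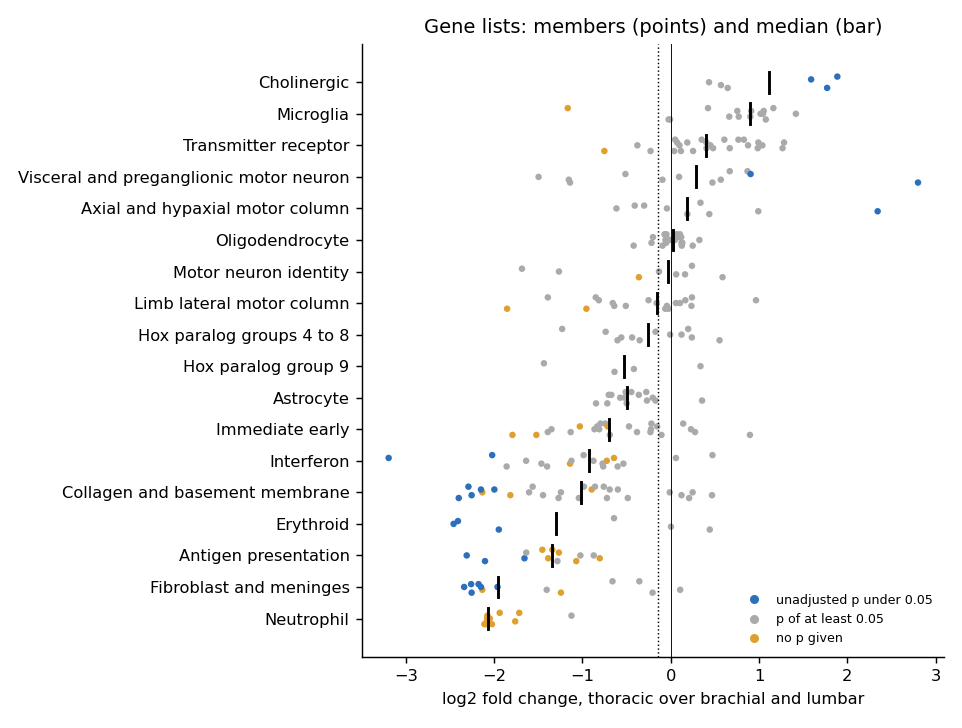
Log2 fold changes of thoracic over brachial and lumbar cells for the members of 18 lists (points) with the median of each list (black bar) and of all members (dotted, -0.14). Cholinergic genes lie to the right with a median of 1.12, and fibroblast and neutrophil genes to the left at -1.963 and -2.07, the latter mostly without a p (orange).

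Neuronal genes lay on both sides of 0. Of 15 genes of mature neurons 9 were above 0 and the median was 0.13, yet the 3 neurofilament genes, which set the calibre of large axons, had an unadjusted p under 0.05 on the lower side (1.24% of all genes). Nefl had 4679 in thoracic, 16638 in brachial and 21143 in lumbar samples (-2.12, -3.76 to -0.47, unadjusted p = 0.0118). Nefh had 6201, 21870 and 24098 (-1.964, -3.63 to -0.30), and Nefm had 318, 893 and 1368 (-1.88, -3.47 to -0.30). In Nefl and Nefh the brachial and lumbar levels lay closer to each other than to the thoracic level. Prph, the related filament gene of peripheral axons, had 181, 414 and 736 (-1.69, -3.40 to 0.03). Map2, Mapt, Snap25 and Stmn2, which mark neurons of many kinds, were at 0.33, 0.05, 0.44 and 0.56.

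Receptor and synapse genes were above 0 more often than the 37.4% of all members, with small values. Of 25 transmitter receptor genes 22 were above 0 (median 0.41), and of 19 synaptic vesicle genes 16 were (median 0.20), with 0 members of either under an unadjusted p of 0.05. Chrnb2, a nicotinic receptor subunit gene, had 18.9 in thoracic, 9.95 in brachial and 3.29 in lumbar samples (1.28, -0.60 to 3.17), and 1.57 in lumbar samples from the lumbar table alone. Unc13a, which primes synaptic vesicles, had 46.0, 11.8 and 17.5 (1.58, -0.26 to 3.42). Among 28 potassium channel genes (median 0.09) Kcna4 was the single one with an unadjusted p under 0.05, on the higher side where 0.4% of all genes lay. The 21 sodium and calcium channel genes had a median of 0.12.

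Axon guidance genes (54) were split evenly, 26 above and 28 below 0. Slit1, which encodes a repellent of growing axons, had 54.9 in thoracic, 8.47 in brachial and 22.1 in lumbar samples (1.77, 0.16 to 3.39, unadjusted p = 0.0315), and the semaphorin gene Sema7a had 139, 37.7 and 52.2 (1.58, -0.16 to 3.31). The 36 adhesion genes had a median of 0.13. A further list held genes that the study names for brachial MNs. Cldn1, Septin1 and Cldn19, which the study examined and did not detect in p8 brachial MNs, were not in it. Its 20 measured members had a median of -0.19 with 9 above 0, and Slc10a4 alone had an unadjusted p under 0.05. Outside the list, Cldn1 was at -2.80, Septin1 at -2.25 and Cldn19 at -2.08 in thoracic cells. Cldn1 had levels of 20.7 in thoracic, 281 in brachial and 68.5 in lumbar samples, and Septin1 had 33.8, 313 and 64.6. Both were thus highest in the brachial samples, although the study did not detect them in brachial MNs. Cldn19 had 20.1, 1.55 (9.54 from the brachial table alone) and 239, highest in lumbar samples. Which cells gave these levels was not tested. The unadjusted Wald p-values of Cldn1, Septin1 and Cldn19 were 0.00359, 0.00595 and 0.0317, and none passed the adjusted threshold. The study drew some of its brachial MN genes from a comparison that includes the brachial samples here, so the direction of those genes is not independent. It took others from embryonic mutant samples or from earlier work.

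Genes of basic metabolism lay near the median of all members, with narrow ranges. Of 78 cytosolic ribosomal protein genes 74 were below 0 (median -0.27), and of 75 genes of respiration and ATP synthase 63 were (median -0.21). Re-centred on the median of all members, these medians were -0.13 and -0.07. Cholesterol synthesis genes (19) had a median of 0.12 with 16 above 0, and 31 proteasome genes a median of 0.03. Mrpl19 was the one member with an unadjusted p under 0.05 among 76 mitochondrial ribosomal protein genes, on the lower side where 1.24% of all genes lay. Its level was 180 in thoracic, 427 in brachial and 324 in lumbar samples (-1.06, -1.99 to -0.12). Immediate early genes (24), which respond to activity and to dissociation, had a median of -0.70 with 20 below 0, and the brachial level of Fos was 10614 against 4737 in thoracic and 6762 in lumbar samples.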

How the data were processed

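RNA of cells sorted from p8 brachial, thoracic and lumbar cord was sequenced as single-end reads (3 samples per region). Per the methods and labels, the authors used HISAT for alignment to GRCm38, featureCounts for counting and DESeq2 for the comparison, with no versions given in the sources used here. The base mean deposited by the authors is a signal, the mean count of a gene divided by size factors. The log2 fold changes and standard errors were deposited by the authors, as were the Wald score (their quotient) and the p-value of its 2-sided test. These columns hold the authors' own comparison and are described because no values per sample were given. No count model could be refitted, and the authors' adjusted p served as an alternative alone. The stage and mutant tables were not used.

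P-values were adjusted by Benjamini-Hochberg within a table, and 95% intervals were computed from the standard errors (normal). Regional levels were solved by least squares from 6 equations per gene, and in 21 of the 14311 genes a level below 0 was set to 0. The levels of the 3 tables summed to within 0.435% (median) of 3 base means. Size factors came from base means shared by at least 10 genes. They give depth on a relative scale, not totals. The samples are biological replicates of pooled cords, and all p-values rest on the spread between them as modelled by the authors. Symbols and positions came from RefSeq (GRCm38.p6), which matched 93.0% of the genes. The members and all 49 gene lists were chosen with earlier results of these data known. The examples come from a fixed rule: genes called, all Hox genes, genes the study names for the regions, and list members of highest base mean or smallest p. The 10 smallest p-values in each direction and other single genes were added after their values were seen. Some of these genes are not reported here. Adjustment and level solution were tested on simulated data. The simulated fold changes for the level solution were exact and not drawn toward 0, so that test does not cover such an effect on the levels. Python 3.11.15, numpy 2.4.6, pandas 2.3.3 and scipy 1.17.1 were used.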

Additional observations from a re-analysis of the deposited data

How the results depend on the processing

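The 2 called genes stayed called and higher with the authors' adjusted p, with adjustment over the members alone, with a fold over 2 required and with both re-centrings. They also remained under base mean limits of 1 and none. None of these settings could remove them. The authors' adjusted p rests on the same p-values, the members are fewer genes, and both folds far exceed 2. Both re-centrings subtract a negative median, which raises positive values, and lower base mean limits leave the adjusted p unchanged. These outcomes therefore give no support to the calls. At a base mean of at least 50 the count was 0, since both genes lie below it, and at an adjusted p under 0.01 it was 1. With the Wald statistic divided by its robust SD of 0.650, which lowers the p of every gene, 28 of 13257 genes were called higher and 74 lower, in place of 2 and 0. At an unadjusted p under 0.05 the counts were 53 higher (0.4%) and 164 lower (1.24%). In lists without an adjusted call, that threshold gave 6 genes of fibroblasts and meninges, 5 of collagen and basement membrane, and 3 each of cholinergic, erythroid, mature neuron and antigen presentation genes. It gave 2 each of visceral neuron and interferon genes, and 1 each of Schwann, pericyte, axial column, brachial study, potassium channel, axon guidance and mitochondrial ribosomal genes. List medians moved by less than the median standard error of their members under every alternative tried but 1. The median of general MN genes was -1.27 without genes that stand in other lists, which leaves few members. Re-centring changed the sign of 4 of 49 list medians. The shift behind it was the median of -0.14. Solving levels from the thoracic table alone moved those of strongly regional genes such as Ngp, Ltf and S100a8. No paired analysis was possible because the tables hold no values per sample, and leaving out replicates was not run for the same reason. A single read of the shallow libraries counts as 1.964 (lumbar), 4.39 (thoracic) or 6.24 (brachial) normalized counts. A regional level averages 3 libraries, so 3 such reads move it by about that amount, and levels of this size can rest on few reads.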
